A study of Mus musculus with 24 samples.

Results

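The question was how far an induced uncoupling protein changed the transcriptional response of cultured muscle cells to oligomycin. For every gene, the change between oligomycin with oleic acid (OOA) and oleic acid alone (OA) was computed once in cells given doxycycline and once in cells given water. The interaction is the doxycycline-arm change minus the water-arm change, on log2(FPKM + 1), where FPKM is the number of fragments of a gene scaled by its length and by the depth of the library. Genes entered when their FPKM reached 1 in at least 4 libraries, which kept 12904 of 56748 genes. Among genes with a plain symbol, Mok lay just inside this filter, with 1 FPKM in the lowest of its 4 highest libraries, and Ydjc just outside with 0.9998.

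The cells were C2C12, an immortalised mouse myoblast line, and all carried a lentiviral vector that makes uncoupling protein 1 (UCP1) when doxycycline is present. Dox_OOA cells received doxycycline, 1 µM oligomycin and 300 µM oleic acid, and Dox_OA cells received doxycycline and 300 µM oleic acid. OOA and OA cells received the same treatments with water in place of doxycycline. Doxycycline or water was given 24 h after seeding, the treatments followed after another 24 h, and RNA was taken 16 h later. Each group held 4 libraries, so 16 of the 24 libraries of the series were contrasted. The other 8 came from cells given 51 µM bovine serum albumin (BSA) and served only to estimate the spread. Whether the oleic acid was bound to BSA, and at what level, is not given. Cells without the vector were not given doxycycline in these data, so effects of doxycycline and of UCP1 cannot be told apart. Nothing in the labels ties the 4 libraries of a group to separate cultures, and the p-values then rest on a spread between samples that may be technical.

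Oligomycin blocks the proton channel of ATP synthase, which stops ATP production and leaves the inner mitochondrial membrane highly polarised. UCP1, the carrier that brown fat uses to make heat, lets protons return without passing through ATP synthase, and fatty acids such as oleic acid activate it. Mitochondrial stress of several kinds leads to phosphorylation of the translation factor eIF2alpha and to translation of the transcription factor ATF4. This integrated stress response raises genes of amino acid supply, tRNA charging and feedback control.

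The 16 contrasted libraries held 20370651 to 29410667 reads. Over log2 values, each correlated with the mean of the other 3 of its group at 0.9864 to 0.9925 (Pearson, across genes), lowest for Dox_OOA replicate 3. Such correlations of levels are high between any libraries of 1 cell line and are given as a description only. All 6 myoblast markers were detected and summed to 990 to 1065 FPKM in Dox_OOA, 897 to 945 in Dox_OA, 821 to 890 in OOA and 924 to 993 in OA. Markers of adipocytes were at 0 in every library, those of endothelial, epithelial and hepatic cells summed to at most 0.135 FPKM, those of neurons to at most 1.05 and those of leukocytes to at most 2.15. Of 5 markers of differentiated myotubes 4 were detected, and the 5 summed to 40.3 to 54.0 FPKM in Dox_OOA and 44.3 to 55.5 in Dox_OA, and to 22.2 to 30.9 in OOA and 54.1 to 84.4 in OA.

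Ucp1 checked the labels. It stood at 215 ± 7.29 FPKM in Dox_OOA, 322 ± 12.4 in Dox_OA, 4.42 ± 0.67 in OOA and 6.84 ± 0.61 in OA (SD, n = 4 each). The libraries of the 4 groups did not overlap. Ucp1 in Dox_OOA was 0.668 times that in Dox_OA, and in OOA 0.646 times that in OA, each with an exact two-sided permutation p of 0.0286, the smallest that 70 assignments of 4 against 4 libraries can give. Its interaction was -0.04 ± 0.11 (SE, adjusted p = 0.81 by limma). The sign of that interaction turned under other settings, and at a pseudocount of 5 it passed the threshold (-0.24, adjusted p = 0.0118). Reads cannot separate the vector's transcript from the mouse gene.

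Most genes with a 2-fold response to oligomycin in water responded less with doxycycline. In the water arm 7337 genes, 56.9% of those tested, passed an adjusted p of 0.05 (limma, Benjamini-Hochberg over all genes tested), 3673 higher in OOA and 3664 lower, and 744 of them changed at least 2-fold. In the doxycycline arm 4283 genes passed, 33.2%, 2085 higher in Dox_OOA and 2198 lower, and 75 changed at least 2-fold. The interaction itself passed for 3834 genes, 29.7% of those tested, with 1950 positive (15.1%) and 1884 negative (14.6%). Counts for the gene lists below are to be read beside these shares. A negative interaction means a smaller rise or a deeper fall under doxycycline, and a positive one a smaller fall or a larger rise. The median interaction over all genes was -0.01, close to 0.

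For the 744 genes with a 2-fold response in water, the share of it retained with doxycycline was the doxycycline-arm log2 change as a percentage of the water-arm log2 change, with a 95% Fieller interval. The 2 changes share no library. Because the genes were selected on the water-arm change, that change is likely somewhat overestimated and the share somewhat low. The interaction uses the same OOA and OA libraries, so the selection also favours its passing in the counts that follow. Over all genes tested, the interaction passed for 29.7%. Of the 357 genes that rose in OOA, the interaction passed for 325, and the median share was 36.4% (interquartile range 25.7 to 46.6%). Of the 387 genes that fell, it passed for 354, with a median share of 43.2% (36.1 to 50.1%). The median change of the genes that rose was 0.50 with doxycycline and 1.34 with water, and that of the genes that fell was -0.60 with doxycycline and -1.32 with water.

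A response was called lost, a rescue that was full or nearly so, when the whole interval lay within 25% of 0. It was called partly retained, a partial rescue, when the interval lay between 25 and 75%, and retained, no rescue, when it lay above 75%. Rescue here refers to the change within the doxycycline arm, not to a return to the level of OA. Among lost responses, Megf6 averaged 5.48 FPKM in Dox_OOA and 7.73 in OA, and Nrep 14.2 and 13.3. Partial rescue was the most frequent of these classes, with 136 of the 357 genes that rose (38.1%) and 219 of the 387 that fell (56.6%). Only 8 genes that rose and 12 that fell met the rule for a lost response, and 0 and 2 that for a retained one. The intervals of the other 213 (59.7%) and 154 (39.8%) genes crossed a limit, so that no class was assigned. These counts depend on single libraries: without Dox_OOA replicate 3 the lost genes numbered 13 in place of 20, and without OOA replicate 3 a single gene remained in the retained class. Shares above 100% were found for 0 genes that rose and 3 that fell, and shares below 0 for 16 and 11.

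**Figure D1:**
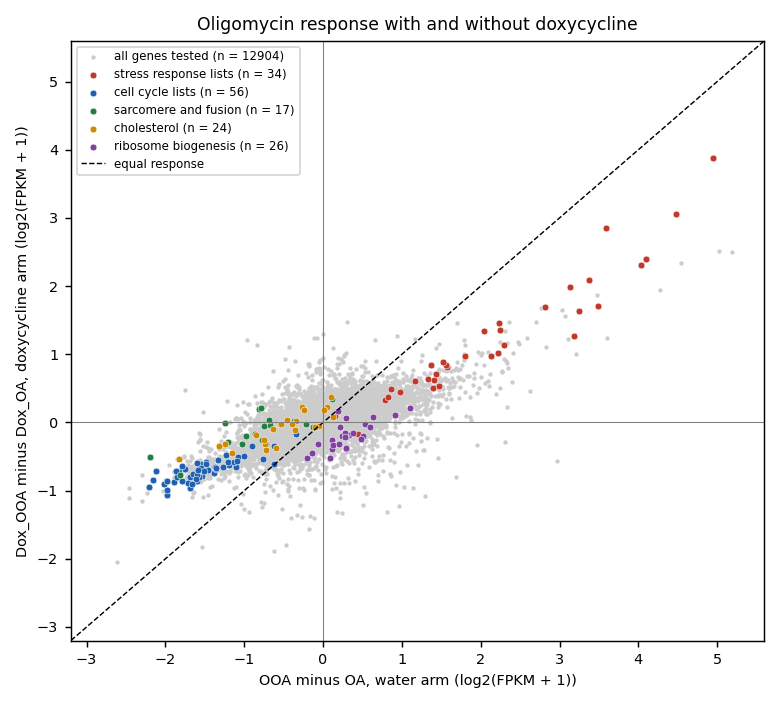
Each point is a gene, with its log2(FPKM + 1) change from OA to OOA in the water arm on the x axis and from Dox_OA to Dox_OOA in the doxycycline arm on the y axis; gene lists are coloured and the dashed line marks equal responses. Most stress response and cell cycle genes lie between the x axis and the dashed line, while ribosome biogenesis genes lie mostly right of 0 and below the x axis.

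The regulators of the integrated stress response rose in both arms and rose less with doxycycline. All 12 regulators tested rose in OOA against OA (28.5% of all genes rose), 11 also rose in Dox_OOA against Dox_OA (16.2% of all genes), and the interaction was negative past the threshold for 11 (14.6% of all genes). Their median change was 0.93 with doxycycline and 1.84 with water. Among the 10 with a 2-fold response in water, 8 were partly retained, 0 were lost and 2 crossed a limit, with shares of 36.1 to 78.4% and a median of 52.2%.

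Atf4 mRNA, which encodes the central transcription factor, averaged 158 ± 8.35 FPKM in Dox_OOA and 88.0 ± 4.49 in Dox_OA, and 372 ± 16.2 in OOA and 126 ± 8.22 in OA (SD, n = 4). Its share was 54.0% (45.3 to 63.3%). Trib3 (ENSMUSG00000032715, chromosome 2, 152179342 to 152185952, GRCm39), a pseudokinase that restrains ATF4, stood at 41.1, 40.6, 42.6 and 39 FPKM in Dox_OOA and 1.46, 1.96, 2.42 and 1.60 in Dox_OA. In the water arm it stood at 153, 157, 145 and 149.6 FPKM in OOA and 3.59, 3.82, 3.84 and 4.45 in OA. No groups overlapped, OOA was far above all others, and Dox_OA lay below OA. Its log2 change was 3.88 ± 0.10 with doxycycline and 4.95 ± 0.10 with water (SE), an interaction of -1.07 ± 0.15 (adjusted p = 6.52e-06) and a share of 78.4% (72.9 to 84.1%). The share ranged from 66.4 to 85.5% over other pseudocounts and fits.

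The regulators differed among themselves. Ppp1r15a, the phosphatase subunit that ends the eIF2alpha signal, averaged 12.3 ± 0.83 FPKM in Dox_OOA and 4.50 ± 0.39 in Dox_OA, and 55.3 ± 4.31 in OOA and 5.18 ± 0.43 in OA, a share of 39.9% (33.3 to 46.9%). Its interval lay wholly below that of Trib3. Ddit3, which encodes the stress factor CHOP, averaged 30.5 ± 2.65 FPKM in Dox_OOA, 9.13 ± 1.08 in Dox_OA, 100 ± 4.96 in OOA and 9.66 ± 0.69 in OA, with a share of 50.4% (45.5 to 55.6%). Atf3 retained 57.3% (49.8 to 65.2%), Sesn2 60.1% (54.5 to 66.1%) and the chromatin protein gene Nupr1 45.5% (37.6 to 53.8%). Atf3 averaged only 0.491 FPKM in Dox_OA and 0.591 in OA, and its share ranged from 42.8 to 71.8% under other settings. Ddit4, an inhibitor of mTORC1 signalling, had a wide interval at 36.1% (20.8 to 53.1%).

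Both mitokines, hormones that stressed mitochondria cause cells to secrete, had negative interactions. Fgf21 stood at 17.2, 19.9, 13.5 and 17.4 FPKM in Dox_OOA and 0.679, 1.51, 1.26 and 1.22 in Dox_OA, and at 54.6, 52.7, 56.3 and 54.9 in OOA and 1.54, 1.71, 1.27 and 1.49 in OA. Only Dox_OA and OA overlapped. Its share was 68.2% (60.9 to 76.1%), between 57.1 and 75.7% under other settings. Gdf15 averaged 6.89 ± 0.96 FPKM in Dox_OOA, 0.529 ± 0.34 in Dox_OA, 27.1 ± 3.72 in OOA and 0.662 ± 0.35 in OA. Its interaction of -1.70 ± 0.23 (adjusted p = 3.9e-06) did not pass at a pseudocount of 0.1 (adjusted p = 0.0579) or with limma-voom on recovered reads (adjusted p = 0.142), and its share of 58.4% moved between 44.2 and 76.7%.

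Enzymes that supply amino acids were also partly rescued. Of 20 ATF4 effectors tested, all rose in OOA, 18 rose and 1 fell in Dox_OOA, and the interaction was negative for 19. Among the 16 with a 2-fold response in water, 15 were partly retained and the median share was 53.4%. Chac1, which degrades glutathione, averaged 47.1 ± 7 FPKM in Dox_OOA, 5.68 ± 0.91 in Dox_OA, 141 ± 12.2 in OOA and 10.8 ± 0.31 in OA, a share of 79.4% (72.3 to 87.0%). Asns, the asparagine synthetase gene, averaged 43.6 ± 1.93 FPKM in Dox_OOA, 15.3 ± 0.79 in Dox_OA, 134 ± 4.82 in OOA and 27.8 ± 0.97 in OA, a share of 65.3% (60.3 to 70.7%). Among mitochondrial folate enzymes, Mthfd2 retained 65.6% (58.4 to 73.4%), Aldh1l2 62.2% (58.5 to 66.0%) and Shmt2 43.9% (38.6 to 49.5%). Gpt2, which makes alanine, retained 63.3% (59.6 to 67%), and Pck2, the mitochondrial PEP carboxykinase, 60.1% (55.3 to 65.1%). Cth, which releases cysteine from cystathionine, retained 48.9% (39.9 to 58.5%), between 36.4 and 57.9% under other settings.

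Of 11 amino acid transporters tested, the interaction was negative for 8 and positive for 2 (15.1% of all genes were positive), with a median of -0.78 that came to -0.37 at a pseudocount of 5. Slc7a5, the light chain of the leucine transporter, averaged 84.0 ± 2.44 FPKM in Dox_OOA, 29.6 ± 1.04 in Dox_OA, 239 ± 1.97 in OOA and 45.8 ± 1.42 in OA, a share of 62.5% (58.2 to 66.9%). Its heavy chain partner Slc3a2 retained 49.4% (43.4 to 55.8%), the glycine carrier Slc6a9 54.4% (47.1 to 62.2%) and the arginine carrier Slc7a1 48.4% (40.3 to 57.0%).

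Levels of many of these genes were also lower with doxycycline in the groups without oligomycin. In Dox_OA against OA, 14 of the 20 ATF4 effectors and 7 of the 12 regulators fell, with 0 rising in either list (7.01% of all genes fell and 4.29% rose). Psat1, an enzyme of serine synthesis, averaged 34.6 ± 1.84 FPKM in Dox_OOA and 24.4 ± 1.12 in Dox_OA, against 78.6 ± 2.92 in OOA and 43.0 ± 0.98 in OA. Phgdh, the first enzyme of that pathway, averaged 58.9 ± 1.18 FPKM in Dox_OOA and 38.3 ± 1.91 in Dox_OA, against 153 ± 4.42 in OOA and 67.7 ± 2.32 in OA. For both genes every Dox_OOA library lay below every OA library, although both rose within the doxycycline arm by 0.48 ± 0.04 and 0.61 ± 0.05 on the log2 scale (SE). For Trib3, the Dox_OOA level was -1.86 relative to OOA on the log2 scale, of which the interaction made -1.07 and the difference between Dox_OA and OA -0.79. In Dox_OOA against OOA, all 12 regulators and all 20 effectors were lower (45.7% of all genes passed in this comparison and 23.7% were lower).

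The cytosolic tRNA synthetases, which charge tRNAs with amino acids and include many ATF4 targets, mostly rose less with doxycycline. Of 20 tested, 13 rose and 4 fell in Dox_OOA, 15 rose and 1 fell in OOA, and the interaction was negative for 16 with a median of -0.58. The 9 with a 2-fold response in water retained a median of 48.9%. Wars (ENSMUSG00000021266, chromosome 12, 108825956 to 108860100) stood at 31.5, 32.7, 35 and 33 FPKM in Dox_OOA and 21.4, 22.1, 20.1 and 21.6 in Dox_OA. Its values were 108, 103, 107 and 101 FPKM in OOA and 24.1, 24.7, 23.7 and 22.1 in OA. Every OOA library was high, the Dox_OOA libraries lay between, and Dox_OA overlapped OA. The share of Wars was 29.0% (24.2 to 34.1%), below the whole interval of Gars at 52.8% (47.0 to 59.0%). Eprs retained 38.1% (31.1 to 45.4%) and Yars 42.3% (35.5 to 49.4%). The 17 mitochondrial tRNA synthetases responded little, with medians of -0.05 with doxycycline and 0.07 with water, and the interaction was negative for 4.

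Promoter windows from 250 bases before to 50 bases after the gene start were searched on both strands for TGATGNAAT, the composite element bound by ATF4 with C/EBP-family partners. The sequences are from RefSeq on GRCm38.p6, whose coordinates differ from those of the expression file. The letters were found in 0.43% of the windows of tested genes and 0.965% of all windows, in 3 of the 13 windows of cytosolic synthetases, 1 of 12 of the regulators, 1 of 24 of the effectors, 1 of 3 of the mitokines and 0 of 10 of the amino acid transporters. Outside the stress lists, beta-oxidation had 1 of 17. Windows were found for 13 of 20 synthetase genes, 11 of 12 regulators, 19 of 21 effectors, 2 of 2 mitokines and 7 of 12 transporters. A match describes letters and is not a binding site. The matches among synthetases, regulators, effectors and mitokines are shown because they belong to genes whose rise was smaller with doxycycline, with the element in capitals on whichever strand it was read:
Fgf21, chr7:45615592-45615660, minus strand: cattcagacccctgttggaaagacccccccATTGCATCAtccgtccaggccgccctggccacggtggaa
Nupr1, chr7:126625543-126625611, minus strand: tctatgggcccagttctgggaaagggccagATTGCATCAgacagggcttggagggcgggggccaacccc
Pycr1, chr11:120643813-120643881, minus strand: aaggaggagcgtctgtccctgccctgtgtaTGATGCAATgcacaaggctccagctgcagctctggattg
Aars, chr8:111033699-111033767, plus strand: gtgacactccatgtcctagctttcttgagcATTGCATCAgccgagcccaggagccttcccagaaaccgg
Gars, chr6:55037940-55038008, plus strand: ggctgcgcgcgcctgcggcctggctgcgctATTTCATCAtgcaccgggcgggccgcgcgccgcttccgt
Iars, chr13:49682106-49682174, plus strand: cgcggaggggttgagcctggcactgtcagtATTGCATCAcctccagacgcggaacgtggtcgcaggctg

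Pycr1, Aars and Iars were named for these letters after their values had been seen. Pycr1, an enzyme of proline synthesis, averaged 11.8 ± 0.50 FPKM in Dox_OOA and 5.32 ± 0.49 in Dox_OA, and 33.5 ± 0.97 in OOA and 6.37 ± 0.41 in OA, a share of 46.0% (38.5 to 54.0%). Aars, which charges alanine tRNA, retained 51.7% (44.0 to 59.8%). Iars, which charges isoleucine tRNA, rose by 0.32 ± 0.04 with doxycycline and by 0.78 ± 0.04 with water (log2, SE).

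Genes of mitochondrial protein quality control rose in part of the list and rose less with doxycycline. Of 14 chaperones and proteases, 3 rose and 1 fell in Dox_OOA, 7 rose and 2 fell in OOA, and the interaction was negative for 8 and positive for 1. Hspa9, the matrix HSP70, averaged 179.6 ± 2.02 FPKM in Dox_OOA, 123 ± 4.15 in Dox_OA, 380.2 ± 14.7 in OOA and 152 ± 6.79 in OA, a share of 41.2% (35.1 to 47.7%). Lonp1, the matrix protease, retained 37.3% (31.7 to 43.1%) and Dnaja3, a co-chaperone, 31.9% (22.2 to 42.1%). Trap1 averaged 43.1 ± 1.68 FPKM in Dox_OOA and 43.0 ± 1.94 in Dox_OA, against 52.3 ± 2.01 in OOA and 42.2 ± 0.81 in OA. The route upstream of ATF4 was covered by 8 genes (the protease gene Oma1, Dele1, the eIF2alpha kinases and subunits of eIF2 or its exchange factor eIF2B). The interaction was positive for 2 of them, the kinase genes Eif2ak2 and Eif2ak3, and negative for 1, Eif2b5. Over all genes tested, it was positive for 15.1% and negative for 14.6%.

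The endoplasmic reticulum chaperones had no common direction, with 7 positive and 5 negative interactions among 18 (15.1% and 14.6% of all genes). Hspa5 (ENSMUSG00000026864, chromosome 2, 34661982 to 34667559), the main chaperone of that compartment, stood at 169.7, 167, 159 and 155 FPKM in Dox_OOA and 204, 206, 188 and 197 in Dox_OA. In the water arm it stood at 375, 349.8, 363 and 373 FPKM in OOA and 240.4, 252, 228 and 232 in OA. The 4 groups did not overlap, and oligomycin went with a rise in water and a fall with doxycycline (interaction -0.90 ± 0.05, SE, adjusted p = 1.95e-11). Hyou1, its exchange factor, fell by 0.32 ± 0.04 with doxycycline and rose by 0.10 ± 0.04 with water. Pdia3, a disulfide isomerase, went the other way in the interaction (0.46 ± 0.06). Ero1a, which re-oxidises such isomerases, retained 45.9% (40.1 to 52.0%) of its rise.

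**Figure D2:**
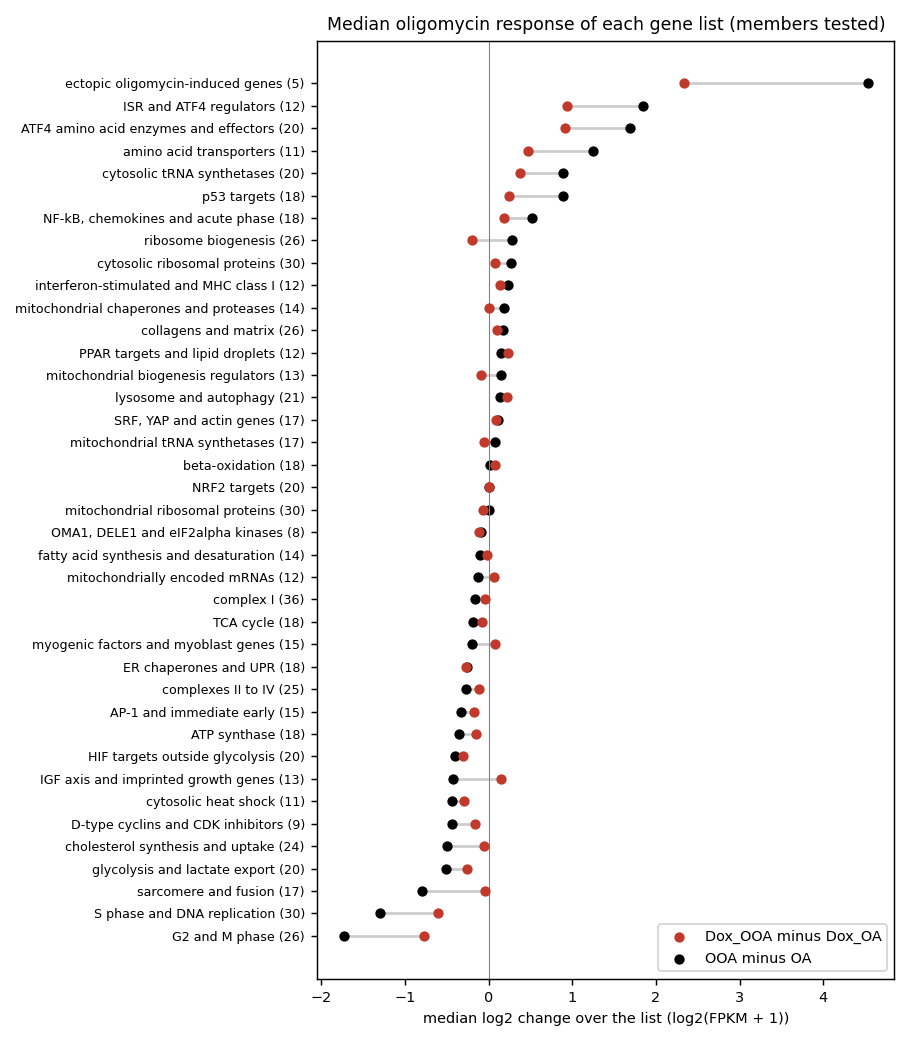
For each gene list, the median log2(FPKM + 1) change from Dox_OA to Dox_OOA (red) and from OA to OOA (black) is shown, with the number of members tested in parentheses. The red points lie nearer to 0 than the black ones for the lists of stress response regulators, ATF4 effectors, p53 targets, S phase, G2 and M phase, and sarcomere and fusion. For ribosome biogenesis they lie on opposite sides of 0, at -0.20 with doxycycline and 0.28 with water, and for the ER chaperones close together, at -0.27 with doxycycline and -0.26 with water.

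Most targets of the tumour suppressor p53 rose in water and rose less with doxycycline. Of 18 tested, 9 rose and 0 fell in Dox_OOA, 16 rose and 1 fell in OOA, and the interaction was negative for 15 and positive for 1, with a median change of 0.24 with doxycycline and 0.89 with water. The 8 with a 2-fold response in water retained a median of 27.4%, with 3 partly retained and 5 crossing a limit. Cdkn1a, the cell cycle inhibitor p21, averaged 25.4 ± 1.67 FPKM in Dox_OOA, 19.8 ± 0.70 in Dox_OA, 48.2 ± 1.41 in OOA and 21.0 ± 1.94 in OA, a share of 29.1% (18.1 to 40.7%). Zmat3, an RNA-binding protein gene, retained 20.9% (11.9 to 30.2%), and Rrm2b, the p53-induced ribonucleotide reductase subunit, 42.1% (33.1 to 51.7%). Mdm2, the ubiquitin ligase for p53, averaged 13.2 ± 0.78 FPKM in Dox_OOA, 12.1 ± 0.53 in Dox_OA, 21.5 ± 1.00 in OOA and 12.8 ± 0.70 in OA. The OOA libraries stood above the other 3 groups, which overlapped. Eda2r, a gene of the TNF receptor family, retained 48.1% (41.2 to 55.4%).

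Cell cycle genes fell in both arms and mostly less with doxycycline. All 26 genes of G2 and M phase and all 30 of S phase fell in both arms (28.4% of all genes fell in the water arm and 17% in the doxycycline arm). The interaction was positive for 26 of 26 and 25 of 30. Every G2 and M gene was partly retained, with shares of 36.1 to 54.0% and a median of 46.4%. Of 24 S phase genes with a 2-fold response in water, 22 were partly retained and 2 crossed a limit, with a median of 48.0%. The median change of the G2 and M list was -0.78 with doxycycline and -1.73 with water.

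Plk1 (ENSMUSG00000030867, chromosome 7, 121758662 to 121769096), a kinase of mitosis, stood at 20.8, 20.1, 23.7 and 23.5 FPKM in Dox_OOA and 44.2, 42.7, 45.6 and 40.5 in Dox_OA, and at 11.8, 12.7, 12.2 and 11.7 in OOA and 59.5, 62.1, 58.3 and 58.8 in OA. The groups did not overlap, and Dox_OA lay below OA. Its interaction was 1.27 ± 0.08 (SE, adjusted p = 5.66e-11) and its share 42.7% (37.1 to 48.6%). Rrm2, the ribonucleotide reductase subunit made in S phase, averaged 74.0 ± 4.12 FPKM in Dox_OOA, 121 ± 3.64 in Dox_OA, 31.9 ± 1.31 in OOA and 142 ± 5.90 in OA, a share of 33.4% (27.9 to 39.1%). Ccna2, cyclin A2, retained 39.2% (34.7 to 43.9%) and Cdk1, the kinase of mitotic entry, 38.8% (33 to 44.9%). Ccnb1, cyclin B1, retained 45.5% (37.1 to 54.4%), the replicative helicase subunit Mcm5 43.3% (36.2 to 50.8%), the proliferation marker Mki67 49.7% (41.2 to 58.8%) and Cdc20, an activator of the anaphase ubiquitin ligase, 53.5% (46.1 to 61.4%). Without oligomycin, 18 of the 26 G2 and M genes were lower in Dox_OA than in OA (7.01% of all genes were lower). Bub1, a spindle checkpoint kinase, averaged 14 ± 0.39 FPKM in Dox_OOA, 23.1 ± 0.74 in Dox_OA, 7.70 ± 0.36 in OOA and 28.4 ± 1.20 in OA.

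Promoters of G2 and M genes often carry the cell cycle homology region TTTGAA, read by the DREAM complex, with CCAAT boxes bound by NF-Y. In the same windows, on either strand, TTTGAA was found in 76.2% of the 21 windows of the list, in 11.9% of the windows of tested genes and in 17.9% of all windows. CCAAT was found in 85.7% of the 21, 38.2% of those of tested genes and 37.4% of all. Windows were found for 20 of the 26 genes. Each motif was counted separately, overlaps in position between motifs were not examined, and the shares describe letters only. Stretches around TTTGAA, in capitals, are given for 4 of the genes just described:
Plk1, chr7:122159435-122159484, plus strand: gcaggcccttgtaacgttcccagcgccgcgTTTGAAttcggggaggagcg
Cdk1, chr10:69352948-69353013, minus strand: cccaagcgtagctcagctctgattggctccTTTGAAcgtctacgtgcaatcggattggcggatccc
Cdc20, chr4:118437326-118437391, minus strand: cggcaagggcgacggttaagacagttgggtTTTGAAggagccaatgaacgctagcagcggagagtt
Mki67, chr7:135716460-135716525, minus strand: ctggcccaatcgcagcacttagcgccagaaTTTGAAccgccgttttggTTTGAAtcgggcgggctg

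Genes that control entry into the cycle behaved less evenly. Of 9 D-type cyclins and inhibitors tested, the interaction was positive for 6 and negative for 1. Ccnd1, cyclin D1, averaged 20.8 ± 0.91 FPKM in Dox_OOA, 44.7 ± 1.63 in Dox_OA, 18.3 ± 0.96 in OOA and 52.0 ± 0.85 in OA. It retained 73.1% (66.0 to 80.7%) of its fall, a higher share than any of the 26 G2 and M genes. Cdkn2c, an inhibitor of cyclin D kinases, retained 36.2% (26.0 to 47.1%). Myc rose in OOA and much less in Dox_OOA, with 38.0 ± 1.93 FPKM in Dox_OOA, 32.6 ± 3.80 in Dox_OA, 76.9 ± 4.47 in OOA and 35.1 ± 0.21 in OA, a share of 19.8% (7.96 to 32.2%). Mxd3, which belongs to the MYC network, retained 33.6% (22.6 to 45.5%) of its fall.

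More genes for making ribosomes fell than rose with doxycycline, and more rose than fell in water. Of 26 genes in the ribosome biogenesis list, 19 rose and 1 fell in OOA, while 1 rose and 17 fell in Dox_OOA. The interaction was negative for 24. The 1 member with a 2-fold response in water had a share of 19.8%, the same as that of Myc given above. Ddx21, a nucleolar helicase gene, averaged 36.5 ± 1.92 FPKM in Dox_OOA, 48.5 ± 3.56 in Dox_OA, 70.8 ± 3.37 in OOA and 58.0 ± 3.98 in OA. The 4 groups did not overlap, and its log2 change was -0.40 ± 0.05 with doxycycline and 0.28 ± 0.05 with water (SE). Polr1a, the large subunit of RNA polymerase I, fell by 0.15 ± 0.04 with doxycycline and rose by 0.38 ± 0.04 with water. Nop14, a factor of the small subunit, rose by 0.91 ± 0.06 with water and had a value of 0.10 ± 0.06 with doxycycline (adjusted p = 0.17). In Dox_OA against OA, 18 of the 26 fell (7.01% of all genes fell). Among 30 cytosolic ribosomal protein genes, many with near-identical pseudogenes, 27 rose in OOA and 8 in Dox_OOA, and the interaction was negative for 16. Rpl4 averaged 643 ± 25.4 FPKM in Dox_OOA, 581 ± 17.1 in Dox_OA, 837 ± 24.4 in OOA and 592 ± 20.6 in OA.

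Some of the steepest responses were of genes hardly expressed without oligomycin. Cdsn (ENSMUSG00000039518, chromosome 17, 35863025 to 35868077), known as a skin adhesion protein, stood at 18.7, 20.1, 20.6 and 21.7 FPKM in Dox_OOA and 3.22, 2.90, 2.73 and 2.17 in Dox_OA, and at 96.2, 92.2, 100 and 103 in OOA and 1.78, 1.59, 1.43 and 2.04 in OA. The groups did not overlap, and its interaction of -2.69 ± 0.13 (SE, adjusted p = 1.59e-12) left a share of 48.3% (44.4 to 52.3%). Avil, an actin-severing protein gene, retained 45.4% (40.0 to 50.9%), and P2rx3, an ATP-gated channel gene, 34.2% (28.3 to 40.4%), which came to 21.7% at a pseudocount of 5. Cox6a2, the muscle form of a cytochrome oxidase subunit, averaged 7.16 ± 2.25 FPKM in Dox_OOA, 0.601 ± 0.41 in Dox_OA, 33 ± 2.95 in OOA and 0.484 ± 0.29 in OA. Car6, a secreted carbonic anhydrase, stood at 5.59, 5.87, 4.64 and 4.73 FPKM in Dox_OOA and 0, 0.198, 0.0977 and 0.0457 in Dox_OA, and at 32.9, 30.03, 32.1 and 31.2 in OOA and 0 in all 4 OA libraries. These 5 genes had been picked for their rise in OOA, so that rise is no finding here. The choice also favours negative interactions and low shares, which use the same OOA libraries. Among the 4 contrasted groups, Avil, P2rx3 and Car6 reached the filter's 1 FPKM only in those with oligomycin.

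**Figure D3:**
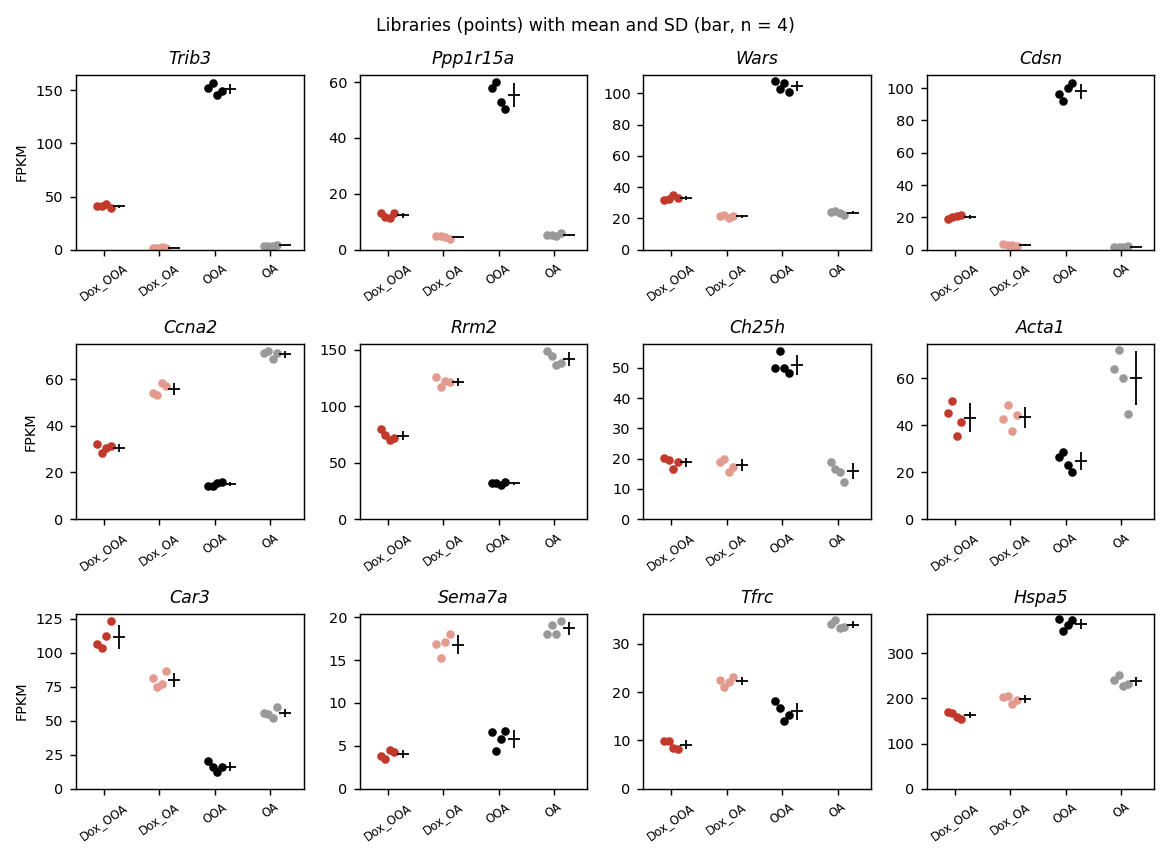
FPKM of 12 genes in each of the 4 libraries of Dox_OOA, Dox_OA, OOA and OA (points), with the mean and SD to their right. Trib3 and Cdsn rose in both arms and far more in OOA, Ch25h was high only in OOA, Car3 was lowest in OOA and highest in Dox_OOA, and Sema7a was low in both groups with oligomycin.

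Inflammatory genes moved both ways. Of 18 genes of the NF-kB, chemokine and acute phase list, 7 rose and 0 fell in Dox_OOA, while 11 rose and 6 fell in OOA. The interaction was negative for 8, which are among those that rose in OOA, and positive for 3. Ptgs2, the inducible cyclooxygenase gene, averaged 18.7 ± 2.34 FPKM in Dox_OOA, 8.91 ± 1.61 in Dox_OA, 97.2 ± 7.61 in OOA and 9.70 ± 1.76 in OA, a share of 31.2% (23.1 to 39.7%). Il6 retained 37.6% (22.2 to 54.6%) and Lcn2, an iron-sequestering acute phase gene, 37.4% (25.8 to 50.01%). Csf1, the macrophage growth factor gene, averaged 108 ± 5.25 FPKM in Dox_OOA, 113 ± 2.28 in Dox_OA, 199 ± 10.4 in OOA and 113 ± 2.91 in OA. Its 3 groups other than OOA overlapped. Hmox1, heme oxygenase, retained 31.6% (22.9 to 40.7%), and the angiogenic factor Vegfa 32.5% (23.5 to 41.9%). Cxcl12, a chemokine gene, fell by 0.48 ± 0.06 with water and rose by 0.17 ± 0.06 with doxycycline. Cxcr4, its receptor, fell in OOA and had a share of 10.3% (-4.64 to 25.6%).

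The 20 lost responses include some with a small remainder: Ascc2 (adjusted p = 0.000824), Gsto1 (0.0249), Ifrd1 (0.04) and Megf6 (0.0193) still passed the threshold in Dox_OOA against Dox_OA by limma. Ch25h (ENSMUSG00000050370, chromosome 19, 34451178 to 34452564), which makes 25-hydroxycholesterol, stood at 20.2, 19.4, 16.7 and 18.7 FPKM in Dox_OOA and 18.9, 19.95, 15.6 and 17.1 in Dox_OA, and at 49.9, 55.7, 49.8 and 48.2 in OOA and 18.7, 16.7, 15.6 and 12.4 in OA. The OOA libraries were all high and the other 3 groups overlapped. Its share was 4.16% (-8.63 to 17.1%). Rnf149, a ubiquitin ligase gene, retained 3.81% (-7.13 to 14.8%) and Ascc2, a subunit of the ASC-1 complex, 15.1% (8.43 to 21.9%). Gsto1, a glutathione transferase gene, retained 12.8% (3.88 to 21.9%), Dus4l, which encodes a tRNA-modifying enzyme, 11.7% (0.0506 to 23.7%) and Prg4, lubricin, 9.76% (-4.67 to 24.6%). B3galnt2 and Ifrd1 completed the 8 genes that rose in OOA.

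Nrep, known from axon regeneration, led the lost falls with the interaction at 1.68 ± 0.09 (SE, adjusted p = 1.39e-11). It stood at 15.1, 13.8, 13.9 and 14.2 FPKM in Dox_OOA and 12.5, 11.8, 12.8 and 13.6 in Dox_OA, and at 3.63, 4.27, 3.68 and 4.40 in OOA and 13.1, 13.8, 14 and 12.4 in OA. Only the OOA libraries were low. Megf6, an EGF-repeat protein gene, retained 10.9% (3.64 to 18.3%), the Notch-glycosylating xylosyltransferase Gxylt2 0.0538% (-10.4 to 10.6%) and the morphogen gene Bmp4 11.9% (1.32 to 22.8%). Gstt1, another glutathione transferase gene, had a share of -6.30% (-22.2 to 9.26%). The other lost falls were of Acta1, Chst12, Pxylp1, Srl, Olfr810, Abhd8 and Dlk2.

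Contractile and fusion genes, which myoblasts switch on as they differentiate, mostly fell in water, and fewer of them fell with doxycycline. Of 17 tested, 15 fell in OOA, while 4 fell and 1 rose in Dox_OOA, and the interaction was positive for 14. The median change was -0.05 with doxycycline and -0.79 with water. The summed myotube markers given above share genes with this list and consist mostly of Acta1, so they are no separate evidence. Myh3 averaged 0.484 FPKM in Dox_OOA and 3.05 in OA, and Actc1 1.52 and 5.10, both well below OA. In a bulk sample, fewer cells of a type and less RNA per cell cannot be told apart. The size of the median interaction depends on the pseudocount, at 0.71 with 1, 1.10 with 0.1 and 0.31 with 5. Acta1, skeletal alpha-actin, stood at 45.3, 50.3, 35.6 and 41.6 FPKM in Dox_OOA and 42.5, 48.6, 37.7 and 44.6 in Dox_OA, and at 26.5, 28.8, 23.1 and 20.2 in OOA and 63.9, 72.1, 60.2 and 44.9 in OA. All but OOA overlapped, and the share was 0.892% (-21.4 to 23.2%). Chrna1, the acetylcholine receptor subunit gene, averaged 45.3 ± 0.66 FPKM in Dox_OOA, 50.9 ± 1.86 in Dox_OA, 27.2 ± 2.03 in OOA and 50.3 ± 1.5 in OA. Actc1, cardiac alpha-actin, kept 23.3% (7.57 to 40.3%) and Myh3, embryonic myosin, 42.2% (30.8 to 54.7%). Reads shared between Acta1 and Actc1, whose coding sequences are close, could be split between them.

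The determination factors differed. Myod1 averaged 50.8 ± 3.29 FPKM in Dox_OOA, 45.4 ± 2.82 in Dox_OA, 25.5 ± 0.92 in OOA and 38.6 ± 2.58 in OA, so that it fell with oligomycin in water and rose with doxycycline (interaction 0.74 ± 0.08, SE, adjusted p = 1.03e-07). Myf5, which marks undifferentiated myoblasts, averaged 8.15 ± 0.68 FPKM in Dox_OOA, 4.95 ± 0.63 in Dox_OA, 18.6 ± 0.72 in OOA and 4.76 ± 0.30 in OA, a share of 35.3% (24.4 to 46.9%). Id2, an inhibitor of such factors, kept 39.4% (32.0 to 47.1%) of its fall. Cdh15, the muscle cadherin gene, averaged 22.9 ± 2.49 FPKM in Dox_OOA, 27.1 ± 1.85 in Dox_OA, 14.6 ± 1.08 in OOA and 25.5 ± 1.44 in OA.

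Some genes went the other way with doxycycline. Car3 (ENSMUSG00000027559, chromosome 3, 14928572 to 14937583), a carbonic anhydrase of muscle and fat, stood at 107, 103, 112 and 123 FPKM in Dox_OOA and 81.4, 75.1, 76.9 and 86.3 in Dox_OA, and at 20.4, 16.0, 12 and 16.2 in OOA and 56.1, 55.3, 52.3 and 59.8 in OA. The groups did not overlap, Dox_OOA was highest and OOA lowest. Its interaction was 2.22 ± 0.13 (SE, adjusted p = 3.33e-11) and its share -27.1% (-39 to -15.9%). Mchr1, a receptor gene for melanin-concentrating hormone, had a share of -30% (-50.6 to -11.5%). Igf1, the growth factor gene, averaged 20.9 ± 1.19 FPKM in Dox_OOA, 16.4 ± 0.93 in Dox_OA, 9.52 ± 0.82 in OOA and 13.8 ± 1.12 in OA. The imprinted non-coding RNA H19 averaged 70.1 ± 4.21 FPKM in Dox_OOA, 58.5 ± 1.93 in Dox_OA, 27.7 ± 2.95 in OOA and 42.7 ± 4.46 in OA. For Igf1 and H19 too, the 4 groups did not overlap. Ucp2, a relative of UCP1 that does not come from the vector, averaged 21.4 ± 0.91 FPKM in Dox_OOA, 17.0 ± 1.18 in Dox_OA, 11 ± 0.33 in OOA and 14 ± 1.07 in OA. Gem, a small GTPase gene chosen after its values were seen, rose by 0.63 ± 0.11 with doxycycline and fell by 0.48 ± 0.11 with water. Among the 744 genes with a 2-fold response in water, no interval lay wholly further than 25% below 0. Igf1, H19, Ucp2 and Gem changed less than 2-fold in water and were given no share.

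Most genes of cholesterol synthesis and uptake fell in water, and fewer fell with doxycycline. Of 24 genes, 18 fell in OOA, while 7 fell and 4 rose in Dox_OOA, and the interaction was positive for 15. The median change was -0.05 with doxycycline and -0.50 with water. Stard4, a sterol carrier gene, retained 26.2% (13.6 to 39.7%). Hmgcs1, an early enzyme, averaged 13.0 ± 0.19 FPKM in Dox_OOA, 11 ± 0.52 in Dox_OA, 9.71 ± 0.29 in OOA and 11.9 ± 0.60 in OA. Srebf2, the transcription factor of the pathway, rose by 0.18 ± 0.04 with doxycycline and fell by 0.24 ± 0.04 with water. Insig1, which retains the SREBP factors in the endoplasmic reticulum, had an interaction of 0.53 ± 0.12 (adjusted p = 0.00218).

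Lipid genes had no common direction. The interaction was positive for 4 and negative for 2 of 12 PPAR target and lipid droplet genes. It was positive for 4 and negative for 3 of 18 beta-oxidation genes, and for 6 and 3 of 14 genes of fatty acid synthesis. Over all genes tested, it was positive for 15.1% and negative for 14.6%. Plin2, the lipid droplet coat gene, averaged 101 ± 2.61 FPKM in Dox_OOA, 70.2 ± 4.22 in Dox_OA, 188 ± 4.33 in OOA and 70.1 ± 4.29 in OA, a share of 37.2% (30.3 to 44.3%). Angptl4, an inhibitor of lipoprotein lipase, rose by 1.00 ± 0.08 with water and had a value of 0.06 ± 0.08 with doxycycline (adjusted p = 0.63). Cpt1a, the entry step of fatty acid oxidation, fell by 0.34 ± 0.03 with water and rose by 0.16 ± 0.03 with doxycycline. Acadm, which encodes a medium-chain dehydrogenase, averaged 59.1 ± 1.56 FPKM in Dox_OOA, 53.1 ± 2.35 in Dox_OA, 36.4 ± 1.81 in OOA and 51.3 ± 1.02 in OA. Acot2, a mitochondrial thioesterase gene, rose in both arms and retained 53.9% (43.4 to 65.4%). Scd2, a desaturase, averaged 91.4 ± 2.96 FPKM in Dox_OOA, 101 ± 4 in Dox_OA, 61.9 ± 1.92 in OOA and 107 ± 3.75 in OA. Acsl3, which activates fatty acids, fell by 0.48 ± 0.06 with water and rose by 0.43 ± 0.06 with doxycycline. Pdk4, a kinase that restrains pyruvate dehydrogenase, rose by 0.34 ± 0.07 with doxycycline and 0.43 ± 0.07 with water, and its interaction of -0.09 ± 0.09 did not pass (adjusted p = 0.51).

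Nuclear genes of the respiratory chain and ATP synthase mostly did not pass the test of the interaction, nor did most genes tested (29.7% passed). It was positive for 4 and negative for 1 of 36 complex I genes, counts no higher than the 15.1% and 14.6% of all genes. It was positive for 7 of 25 genes of complexes II to IV and negative for 1, which is Cox6a2, described above. Of 18 ATP synthase genes it was positive for 6 and negative for 0. In complexes II to IV and in ATP synthase, the positive share was higher than the 15.1% of all genes. Atp5a1, the alpha subunit, averaged 266 ± 8.62 FPKM in Dox_OOA, 295 ± 6.27 in Dox_OA, 248 ± 5.4 in OOA and 338 ± 6.92 in OA (interaction 0.30 ± 0.05, SE). Uqcrh, of complex III, fell by 0.61 ± 0.06 with water and had a value of -0.07 ± 0.06 with doxycycline (adjusted p = 0.42). Idh2, the matrix isocitrate dehydrogenase, averaged 67.6 ± 2.22 FPKM in Dox_OOA, 71.3 ± 2.24 in Dox_OA, 41.8 ± 0.99 in OOA and 72.7 ± 3.66 in OA, with only OOA apart.

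Of 12 mitochondrially encoded mRNAs, whose reads can be shared with nuclear copies, the interaction passed for mt-Co2 alone. It averaged 105 ± 6.66 FPKM in Dox_OOA, 74.4 ± 13.0 in Dox_OA, 55.3 ± 11 in OOA and 60.4 ± 5.93 in OA (interaction 0.65 ± 0.21, SE, adjusted p = 0.0258). The call was lost without Dox_OOA replicate 1, Dox_OA replicate 3, OOA replicate 3 or OA replicate 3, with an adjusted p of at most 0.0615. The interaction of mt-Co1 was 0.30 ± 0.14 (adjusted p = 0.11) and passed without OOA replicate 1 (adjusted p = 0.0437). Mitochondrial transcripts took 1.65 to 1.89% of reads in Dox_OOA and 1.55 to 1.62% in Dox_OA, and 1.19 to 1.61% in OOA and 1.17 to 1.62% in OA; the part of this in the mt-Co2 result was not tested.

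More glycolytic genes fell than rose in both arms. Of 20 tested, 11 fell and 1 rose in Dox_OOA, 12 fell and 2 rose in OOA, and the interaction was positive for 9 and negative for 1, with a median change of -0.26 with doxycycline and -0.51 with water. Ldha, lactate dehydrogenase A, averaged 239.9 ± 14.2 FPKM in Dox_OOA, 397 ± 11 in Dox_OA, 214 ± 15.9 in OOA and 453 ± 14.5 in OA, a share of 67.3% (55.3 to 80.7%). Pgk1 fell by 0.55 ± 0.06 with doxycycline and 0.88 ± 0.06 with water, and Pgam1 by 0.63 ± 0.05 and 0.99 ± 0.05 in the same order. For Ldha, Pgk1 and Pgam1 the Dox_OOA and OOA libraries overlapped. The lactate exporter Slc16a3 retained 46.0% (28.1 to 66.8%). Of 20 targets of the hypoxia factor HIF outside glycolysis, 11 fell and 3 rose in Dox_OOA, and 12 fell and 3 rose in OOA. The interaction passed for 5 of these 20, 2 positive and 3 negative, beside 29.7% of all genes. Of 11 cytosolic heat shock genes, 7 fell and 0 rose in Dox_OOA, 10 fell and 1 rose in OOA, and the interaction was positive for 6 and negative for 1. Hspa8 averaged 216 ± 15.4 FPKM in Dox_OOA, 261 ± 20.8 in Dox_OA, 169 ± 9.72 in OOA and 289 ± 12.6 in OA, and Hspa1b, nearly identical to Hspa1a, retained 35.3% (19.2 to 53.1%).

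A fall that doxycycline did not reduce was found for few genes. Sema7a (ENSMUSG00000038264, chromosome 9, 57847395 to 57870148), a membrane-bound semaphorin gene, stood at 3.78, 3.50, 4.52 and 4.33 FPKM in Dox_OOA and 16.9, 15.3, 17.1 and 18 in Dox_OA, and at 6.56, 4.39, 5.77 and 6.68 in OOA and 18, 19, 18.1 and 19.6 in OA. Both groups with oligomycin were low and overlapped each other. Its share was 119% (102 to 139%), and its interaction of -0.29 ± 0.12 (SE, adjusted p = 0.0772) passed without Dox_OOA replicate 3 (adjusted p = 0.0466) or OOA replicate 2 (0.00282). Tfrc, the transferrin receptor that imports iron, stood at 9.78, 9.96, 8.48 and 8.31 FPKM in Dox_OOA and 22.6, 21.1, 22.1 and 23.1 in Dox_OA, and at 18.1, 16.8, 14 and 15.2 in OOA and 34.1, 34.9, 33.2 and 33.5 in OA. No groups overlapped, with Dox_OOA below OOA and Dox_OA below OA, and the share was 115% (97.2 to 136%).

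Sprr1a, Dusp5 and Errfi1 were chosen after their values were seen. Sprr1a, a cornified envelope protein gene, averaged 1.65 ± 0.78 FPKM in Dox_OOA, 9.64 ± 0.77 in Dox_OA, 1.13 ± 0.41 in OOA and 11.9 ± 1.03 in OA, a share of 78.2% (62.1 to 97.2%). Its interaction of 0.57 ± 0.24 (SE, adjusted p = 0.0824) passed without OOA replicate 2 (adjusted p = 0.047) and at a pseudocount of 5 (adjusted p = 0.0494). Dusp5, a phosphatase of the MAP kinase ERK, retained 84.6% (59.5 to 118%), and Errfi1, an inhibitor of EGF receptor signalling, 85.2% (59.2 to 120.2%). For all 3 genes Dox_OOA and OOA overlapped. The intervals of Dusp5 and Errfi1 ran past 100% on one side and well below 75% on the other, so neither retention nor partial loss could be assigned.

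**Figure D4:**
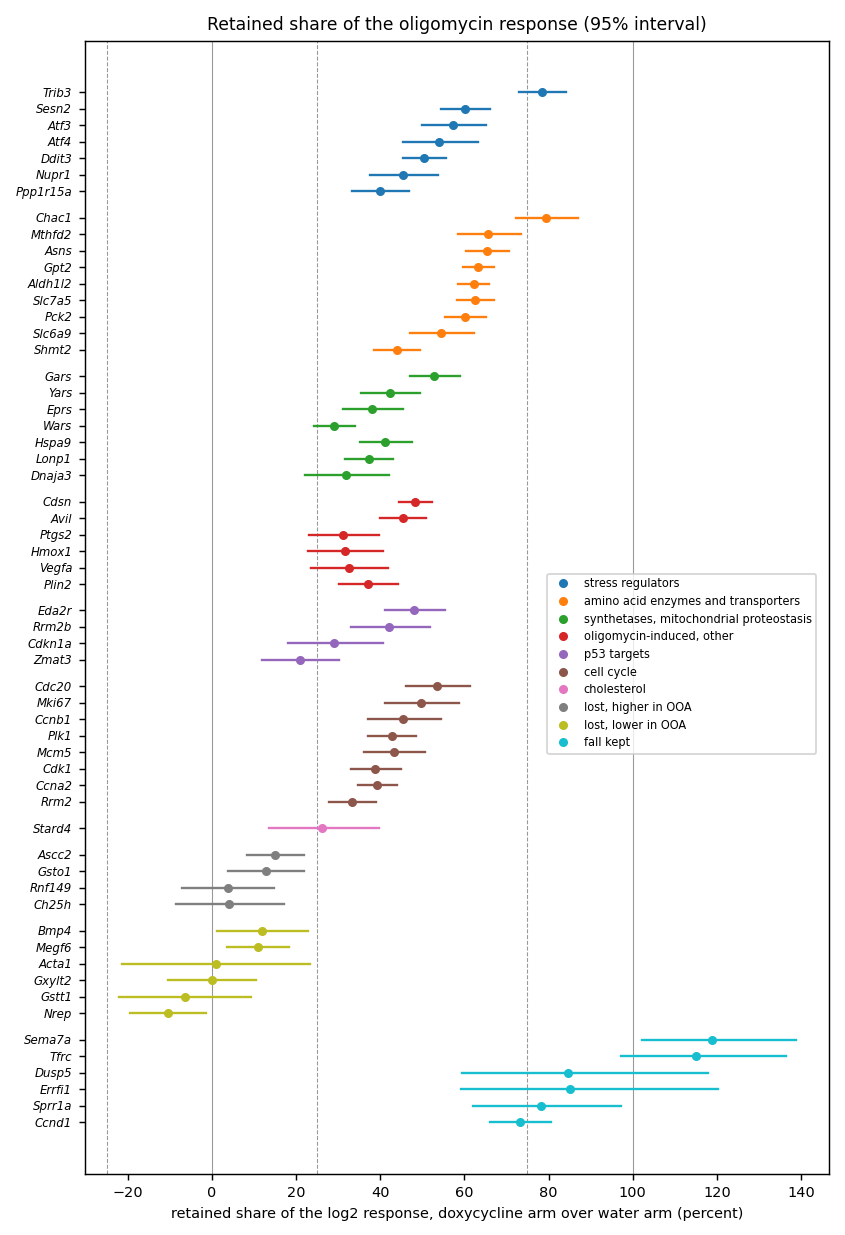
Retained share of the oligomycin response for selected genes (point, in percent) with its 95% interval (line), by gene group; solid lines mark 0 and 100% and dashed lines the class limits of 25% on either side of 0 and of 75%. Trib3 and Chac1 lie at 78.4 and 79.4%, the lost responses around 0, and Sema7a and Tfrc above 100%.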

How the data were processed

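RNA of 24 libraries, 4 in each of 6 groups, was sequenced, and the deposited table gives FPKM per gene, computed by the authors from fragment counts, gene length and library totals. Tools listed in the submitters' processing notes are the aligners HISAT2 and STAR, the counter HTSeq, STAR-Fusion, edgeR and DESeq2. Of genome builds these notes list mm39 and GRCm39, with no version of any tool. No source used here says if counting was stranded, so reads of a gene and an overlapping antisense gene may be mixed.

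Genes had to reach an FPKM of 1 in 4 or more libraries, and log2(FPKM + 1) was fitted with limma 3.58.1 in R 4.3.3. All 6 groups entered the fit as means, leaving 18 residual degrees of freedom, with trended and robust moderation and Benjamini-Hochberg adjustment over all genes tested. Fold changes on this scale understate the change of low genes. The script was tested on simulated data. Other steps used Python 3.11.15 with pandas 2.3.3, numpy 2.4.6 and scipy 1.17.1. Depth was recovered from the whole-number steps of the values, of which 99.78 to 99.97% of those above 0 lay within 0.01 of a whole read. Each level's precision is its SD over 4 libraries.

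Named genes were Ucp1, the largest interactions in each direction, up to 4 members of each of 41 gene lists, leading genes of each class and a set of key genes, 217 in all, of which the text describes part. The members and lists were chosen with earlier results of these data known. Alternatives covered the pseudocount, the filter, rescaling, the samples in the fit, the moderation, limma-voom on recovered reads, the replicate number as a block, the class limits, and each library left out in turn. Some genes are not reported here.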

Additional observations from a re-analysis of the deposited data

Results flagged for a closer look

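The oligomycin response differed between the doxycycline and water arms for 3834 genes by the test of the interaction itself, which is the subject of the report.

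Single libraries stood apart from the other 3 of their group in 23 of 576 combinations of a named gene and a group (3.99%), where chance gives about 1 in 20. In Dox_OOA, replicate 4 was the highest for Asns (46.5 FPKM) and Nop14 (16.8) and the lowest for Cox6b1 (88.2) and mt-Co1 (4689). Replicate 2 of Dox_OOA was the highest for Chrna1 (46.3 FPKM) and the lowest for Gxylt2 (7.58), and replicate 3 was the highest for Hspa1b (11.2). In Dox_OA, replicate 2 was the highest for Atf3 (1.02 FPKM) and replicate 1 for Id2 (16.9).

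In OOA, replicate 1 was the highest for Ero1a (77.2 FPKM) and Pdk4 (36.3), replicate 3 was the highest for Cox6a2 (37.4) and replicate 4 the lowest for Myod1 (24.1). In OA, replicate 2 was the highest for Avil (0.143 FPKM) and Myc (35.5) and the lowest for Bub1 (26.7) and Dus4l (4.09). Replicate 3 of OA was the highest for Ascc2 (15.1 FPKM) and the lowest for Csf1 (109), Pdia3 (261) and Stard4 (5.13). Replicate 4 of OA was the highest for Rpl4 (623 FPKM) and the lowest for Myh3 (2.57).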

How the results depend on the processing

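The count of genes past the threshold of the interaction ranged from 3321 to 4105 over 9 other settings and from 3549 to 3781 with each library left out in turn. The median retained share ranged from 35.2 to 38.7% for genes that rose in OOA and from 39.4 to 44.9% for genes that fell, over 10 settings.

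The class counts depended on the settings. Lost responses numbered 10 at a pseudocount of 5, 34 with limma-voom on recovered reads, 64 when a 1.5-fold water response sufficed and 48 with limits of 33 and 67%, against 20. Partly retained ones numbered 216 at a pseudocount of 5 and 182 with limits of 33 and 67%, and 507 at a 1.5-fold water response, against 355. Retained ones numbered 1, 11 and 5 at a pseudocount of 5, a 1.5-fold water response and limits of 33 and 67%, against 2. With each library left out, lost ranged from 13 to 23 and retained from 1 to 3. The larger class counts at 1.5-fold come from more genes entering.

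Values near 0 turned direction. The Ucp1 interaction was 0.0439 at a pseudocount of 0.1 and 0.0785 with limma-voom, and ran from -0.0924 to 0.0387 with each library left out, positive only without OOA replicate 4. The median interaction of the interferon list was 0.0155 without the filter, and that of the OMA1, DELE1 and kinase list ran from -0.0184 to 0.0708, negative without Dox_OOA replicate 3. The collagen and matrix median ran from -0.00723 to 0.0323 and that of PPAR targets from -0.0613 to 0.0183. The cause was not tested. Calls of Gdf15, Ucp1, Sprr1a, Sema7a, mt-Co1 and mt-Co2 changed as given in the report.

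Across genes, deviations of same-numbered libraries correlated at -0.038 to 0.084. Such a correlation cannot exclude a replicate effect shared between groups in some genes. For Ptgs2, Ldha and Hspa8, replicates 1 and 2 lay above replicates 3 and 4 in each of the 4 groups. With the number as a block, 4105 genes passed the interaction, against 3834 in the main fit, which had no block. Low genes limit precision: at a pseudocount of 5, the interaction of P2rx3 was -1.36 in place of -2.37.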

Other observations

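More lysosome and autophagy genes rose than fell in both arms. Of 21, 16 rose and 0 fell in Dox_OOA against Dox_OA, while 10 rose and 2 fell in OOA against OA. The interaction was positive for 4 and negative for 3, beside 15.1% and 14.6% of all genes. Sqstm1, the autophagy receptor p62, rose by 0.77 ± 0.03 with doxycycline and 1.72 ± 0.03 with water (log2, SE), a retained share of 44.7%. Ctsl, a lysosomal protease, retained 42.9%. Gabarap, a ubiquitin-like protein of the autophagosome, rose by 0.20 ± 0.06 with doxycycline and fell by 0.17 ± 0.06 with water.

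Of 26 matrix genes, the interaction was positive for 6 and negative for 7, beside 15.1% and 14.6% of all genes. Fbn1, fibrillin, averaged 23.2 FPKM in Dox_OOA and 25.8 in Dox_OA, and 54.2 in OOA and 22.5 in OA. Lox, which cross-links collagen, averaged 550.1 FPKM in Dox_OOA and 563 in Dox_OA, and 403 in OOA and 606 in OA. Postn, periostin, rose by 0.32 ± 0.04 with doxycycline and fell by 0.37 ± 0.04 with water. Timp3, an inhibitor of matrix proteases, fell by 0.14 ± 0.04 with doxycycline and rose by 0.49 ± 0.04 with water.

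Among 13 genes of the IGF axis and imprinted growth genes, the interaction was positive for 6 and negative for 2. Igfbp3, an IGF-binding protein gene, averaged 40.1 FPKM in Dox_OOA, 40.4 in Dox_OA, 21.9 in OOA and 44.3 in OA. Of 20 targets of the antioxidant factor NRF2, the interaction was positive for 3 and negative for 7. Gsta4, a glutathione transferase gene, retained 52.7% of its rise, and Fth1, ferritin heavy chain, rose by 0.35 ± 0.04 with doxycycline and 0.67 ± 0.04 with water. Of 15 immediate early genes, the interaction was positive for 3 and negative for 4, beside 15.1% and 14.6% of all genes. Klf4 retained 37.5% of its rise and Jun 33.6% of its fall. Of 12 interferon and MHC class I genes, it passed only for Ifi27, which rose by 0.32 ± 0.07 with doxycycline and 0.79 ± 0.07 with water.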
